A study of Mus musculus with 12 samples.

Results

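The OAS family of the mouse was followed through 4 groups of cultured hematopoietic stem cells (HSCs). It comprised the 8 genes of the deposited table with the symbols Oas1a, Oas1b, Oas1c, Oas1g, Oas2, Oas3, Oasl1 and Oasl2, each with 1 gene ID, out of 40481 gene IDs. All 8 passed the filter on low values (at least 1 CPM in at least 3 libraries), which 14271 genes passed. CPM is the reads of a gene scaled to a library of 1 M reads.

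The cells were sorted HSCs of 2 genotypes, wild type (WT) and iE/R. The iE/R mice have inducible ETV6-RUNX1, a fusion of 2 blood transcription factors known from childhood leukemia. They came from fetal liver (FL) of embryos at E14.5 or from bone marrow (BM) of animals aged 8 weeks. There were 4 groups of 3 libraries: WT fetal liver, ETV6-RUNX1 fetal liver, WT bone marrow and ETV6-RUNX1 bone marrow. All 4 groups shared 3 days of ex vivo HSC expansion culture with doxycycline (DOX) at 1 µg/mL, the inducing drug, so the WT cells carried no fusion but had the drug too. The strain, the sex and number of animals behind a library, and the promoter that drives the fusion are not given in the sources used here. The labels do not say that replicates came from separate animals, so p-values measure the spread between these libraries, which may be technical.

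OAS proteins (oligoadenylate synthetases) are sensors of double-stranded RNA. The active enzymes answer it by joining ATP into short chains called 2-5A, a second messenger of the antiviral response. The genes belong to the classic set that type I interferon turns on through a promoter element called the ISRE. Several mouse family members make no 2-5A and have other or unknown roles.

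Library totals ranged from 32.3 to 64.5 M reads, and 3 reads, taken as the floor of detection, equalled 0.0465 to 0.0928 CPM; floors cover counting error only. All 8 members exceeded 1 CPM in all 12 libraries. Runx1, a partner gene of the fusion, read 110 to 136 CPM in WT and 218 to 244 CPM in ETV6-RUNX1 fetal liver, and 86.7 to 105 CPM in WT and 143 to 194 CPM in ETV6-RUNX1 marrow. A row for the fusion itself was not used here. The 11 HSC markers were all detected above the filter, with summed levels of 1933 to 2381 CPM in WT and 4463 to 4675 CPM in ETV6-RUNX1 fetal liver, and 2108 to 3162 CPM in WT and 3312 to 3725 CPM in ETV6-RUNX1 marrow. A large part of these rises was Ly6a, with means of 19.0 and 880 CPM in fetal liver and 90.5 and 504 CPM in marrow, WT first. By the test used below, 9 of the 11 were called higher in fetal liver and 7 in marrow, with 0 lower. The shares of all genes called higher were 24.8% and 14.4%. Kit was called in neither source. One marrow library stood apart for the family: ETV6-RUNX1 marrow replicate 1 was the lowest of its group for all 8 members. The WT fetal liver libraries stood apart in genes of the Y chromosome, with a mean log2(CPM + 1) of 3.87 to 4.73 against 5.42 to 6.30 in the other 9 libraries.

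All 8 members lie on chromosome 5 of GRCm38, in 2 runs. Oasl2 (114896936 to 114912234, plus strand) and Oasl1 (114923240 to 114937915, plus strand) form a run of 41.0 kb. The other 6 members span 177 kb, in the order Oas2 (120730333 to 120749853, minus), Oas3 (120753098 to 120777661, minus), Oas1c (120800194 to 120812514, minus), Oas1b (120812635 to 120824163, plus), Oas1g (120876142 to 120887613, minus) and Oas1a (120896256 to 120907521, minus). GENCODE M21 annotates Oas1b as a polymorphic pseudogene and the other 7 as protein coding. Oas1a and Oas1g are near copies: 40.9% of the 100-base windows of the Oas1a transcript occur unchanged in Oas1g, and 38.2% of those of Oas1g occur in Oas1a, so the division of reads between this pair is uncertain. Antisense genes overlap Oas1c (Gm43069), Oas2 (Gm43068) and Oasl1 (Gm13822), and whether strand was used in counting is not given in the sources used here.

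The stretches just before 4 start sites are shown because they carry letters that match the core of the ISRE. Each is the 120 bases before the start of the gene, 5′ to 3′ on its strand, from RefSeq promoter windows on GRCm38.p6. The starts of Oas1a, Oas1g and Oas3 are those of RefSeq. That of Oas1b is the GENCODE M21 start, and its stretch was read from the RefSeq window of Oas1c on the other strand. Capitals mark matches to the ISRE half-site pair, GAAA followed after any 2 bases by another GAAA.

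Oas1a: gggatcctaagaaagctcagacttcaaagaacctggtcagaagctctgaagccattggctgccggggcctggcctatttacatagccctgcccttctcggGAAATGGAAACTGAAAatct

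Oas1g: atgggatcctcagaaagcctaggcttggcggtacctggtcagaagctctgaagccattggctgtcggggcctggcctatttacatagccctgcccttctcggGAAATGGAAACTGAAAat

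Oas1b: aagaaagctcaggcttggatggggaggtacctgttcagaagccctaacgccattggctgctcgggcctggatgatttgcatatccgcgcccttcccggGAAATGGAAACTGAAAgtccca

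Oas3: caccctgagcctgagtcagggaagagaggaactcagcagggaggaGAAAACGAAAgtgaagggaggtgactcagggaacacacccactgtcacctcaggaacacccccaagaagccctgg

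These lie at chr5:120907526-120907645 (minus strand) for Oas1a, chr5:120887614-120887733 (minus) for Oas1g, chr5:120812515-120812634 (plus) for Oas1b and chr5:120777660-120777779 (minus) for Oas3. The first 3 genes share a run of 16 bases, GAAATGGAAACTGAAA, made of 2 matches that overlap by 4 bases, and it ends 5, 3 and 7 bases before the start of Oas1a, Oas1g and Oas1b. The Oas1b stretch is the whole 120-base gap between the starts of Oas1b and Oas1c, which point away from each other, so Oas1c has the same run on its other strand at the far end of the gap. In Oas3 a single match begins 75 bases before the start.

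Promoter windows of 300 bases (250 before to 50 after the start) were at hand for 6 members: Oas1a, Oas1c, Oas1g, Oas3, Oasl1 and Oasl2. The half-site pair, searched on both strands, was in 4 of these 6 (all but Oasl1 and Oasl2) and in 3.44% of 32851 RefSeq windows. The 16-base run was in 7 windows (0.0213%), belonging to Oas1a, Oas1c, Oas1g, Apol9a and Apol9b. The GAS-like letters TTCNNNGAA were in 1 member window, that of Oas1a, and in 8.3% of all windows. The RUNX core TGTGGT was in that of Oasl2 and in 16.8% of all windows, while the ETS letters ACCGGAAG were in 0 of 6 and in 2.3% of all windows. A match describes letters in the window and is not a measured binding site.

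The family rose with ETV6-RUNX1 in both sources, far more in fetal liver. Summed over the 8 members, the level was 93.8, 82.9 and 85.9 CPM in WT fetal liver (87.5 ± 5.64, mean ± SD, n = 3) and 2788, 2254 and 2733 CPM in ETV6-RUNX1 fetal liver (2592 ± 294, n = 3), a ratio of 29.6. In marrow it was 275, 308 and 189 CPM in WT (257 ± 61.5, n = 3) and 575, 1186 and 1299 CPM in ETV6-RUNX1 libraries (1020 ± 389, n = 3), a ratio of 3.96. The 4 groups did not overlap, and their order was WT fetal liver, WT marrow, ETV6-RUNX1 marrow, ETV6-RUNX1 fetal liver. In bulk RNA of this kind, fewer cells of a type and less RNA per cell cannot be told apart.

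**Figure D1:**
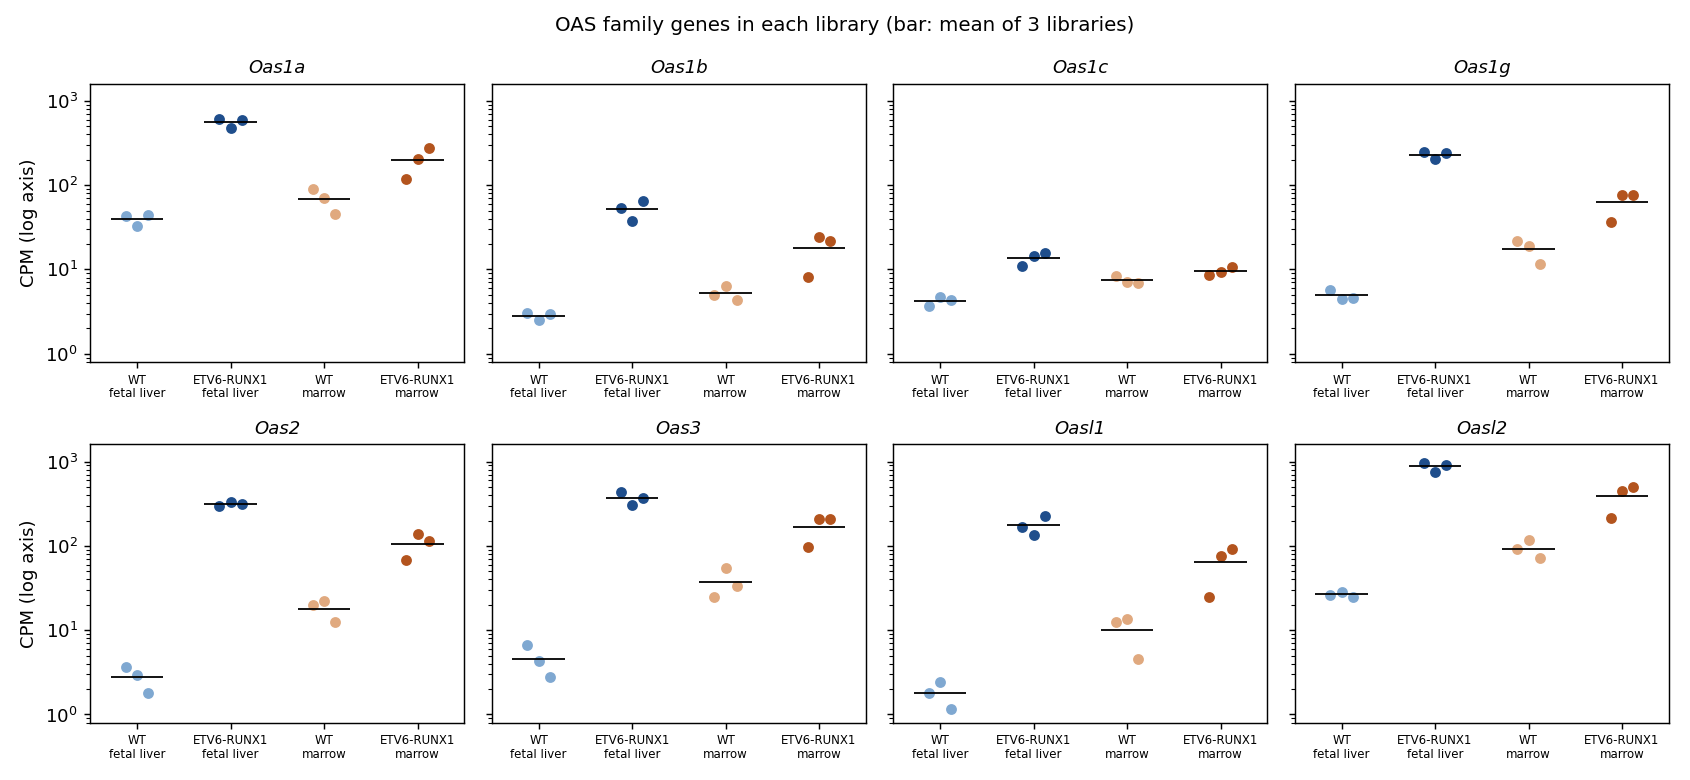
CPM (log axis) of each of the 8 OAS members in each of the 12 libraries, by group. Points are libraries and bars are group means. In each panel the groups do not overlap: WT fetal liver is lowest, then WT marrow, ETV6-RUNX1 marrow and ETV6-RUNX1 fetal liver.

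Oas1a and Oas1g encode small synthetases of the OAS1 type. Oas1a was at 42.9, 32.7 and 43.7 CPM in WT fetal liver and at 616, 472 and 593 CPM with ETV6-RUNX1. In marrow its level was 91.0, 69.5 and 45.2 CPM in WT and 118, 206 and 273 CPM with ETV6-RUNX1. The genotypes did not overlap in either source, and replicate 1 of the ETV6-RUNX1 marrow lay closest to WT. The log2 fold change, on the log2(CPM + 1) scale of all such values here, was 3.79 ± 0.28 (SE) in fetal liver (limma, Benjamini-Hochberg adjusted p = 1.45e-07) and 1.50 ± 0.28 in marrow (limma adjusted p = 0.00289).

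Oas1g, the near copy, had a larger log2 fold change than Oas1a in fetal liver and a similar one in marrow, a contrast between genes that was not tested. Its level was 5.64, 4.52 and 4.61 CPM in WT fetal liver and 246, 202 and 242 CPM in ETV6-RUNX1 fetal liver, a 46.7-fold ratio of means. Marrow libraries read 21.7, 18.9 and 11.6 CPM in WT and 36.6, 75.5 and 77.1 CPM with ETV6-RUNX1. Again no library of one genotype reached the range of the other. The log2 fold changes were 5.28 ± 0.27 in fetal liver (limma adjusted p = 6.31e-09) and 1.77 ± 0.27 in marrow (limma adjusted p = 0.000827).

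The balance between these near copies shifted with the groups. The ratio of Oas1a to Oas1g CPM, which is not corrected for length and is read only across groups, was 8.11 ± 1.20 (SD, n = 3) in WT fetal liver and 2.43 ± 0.0826 in ETV6-RUNX1 fetal liver. In marrow it was 3.93 ± 0.260 in WT and 3.16 ± 0.407 with ETV6-RUNX1. The shared sequence of the pair limits these ratios, and they carry no test.

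Oas2 and Oas3 encode larger synthetases built from repeated OAS units. Of the 8 members, Oas2 had the largest log2 fold change in fetal liver. It read 3.63, 2.96 and 1.81 CPM in WT and 294, 330 and 313 CPM in ETV6-RUNX1 fetal liver, a 111-fold ratio of means. In marrow the values were 19.7, 22.0 and 12.4 CPM in WT against 68.2, 137 and 115 CPM. All ETV6-RUNX1 libraries were above all WT libraries of their source. The log2 fold changes were 6.39 ± 0.26 in fetal liver (limma adjusted p = 1.04e-09), rank 16 from the highest of 14271 genes, and 2.48 ± 0.26 in marrow (limma adjusted p = 7.43e-05), rank 50.

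Oas3, which makes 2-5A, went from 6.70, 4.28 and 2.76 CPM in WT fetal liver to 438, 306 and 365 CPM with ETV6-RUNX1. In marrow it went from 24.6, 54.4 and 33.0 CPM to 96.3, 206 and 207 CPM. The genotypes were separate in both sources. In marrow the highest WT library (54.4 CPM) and the lowest ETV6-RUNX1 library (96.3 CPM) came closest. The log2 fold changes were 6.10 ± 0.33 (limma adjusted p = 1.09e-08) and 2.15 ± 0.33 (limma adjusted p = 0.000951).

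Oasl1 and Oasl2 encode OAS-like proteins that end in ubiquitin-like domains. Oasl1 has no synthetase activity and is known as a brake on the translation of Irf7, whereas mouse Oasl2 does make 2-5A. Oasl1 read 1.82, 2.41 and 1.16 CPM in WT fetal liver and 169, 133 and 229 CPM in ETV6-RUNX1 fetal liver. In marrow it read 12.4, 13.6 and 4.53 CPM in WT and 25.0, 75.0 and 90.8 CPM with ETV6-RUNX1. Replicate 1 of the ETV6-RUNX1 marrow was the one nearest to WT, and still no libraries overlapped. The log2 fold changes were 5.98 ± 0.43 in fetal liver (limma adjusted p = 1.21e-07) and 2.46 ± 0.43 in marrow (limma adjusted p = 0.00213).

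Oasl2 rose in both sources as well. It stood at 26.4, 28.7 and 24.7 CPM in WT fetal liver and at 960, 759 and 910 CPM with ETV6-RUNX1. Marrow libraries gave 92.1, 116 and 71.0 CPM in WT and 215, 452 and 505 CPM with ETV6-RUNX1. The genotypes did not overlap. The log2 fold changes were 4.99 ± 0.26 (limma adjusted p = 7.57e-09) and 1.99 ± 0.26 (limma adjusted p = 0.000317).

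Oas1b and Oas1c share the 120-base gap between their starts but differed in size of response. Oas1b is the gene of resistance to flaviviruses, cut short by a stop codon in many laboratory strains, and its protein makes no 2-5A. It read 3.01, 2.49 and 2.96 CPM in WT and 53.8, 37.4 and 64.1 CPM in ETV6-RUNX1 fetal liver. In marrow it read 5.01, 6.29 and 4.28 CPM in WT and 8.08, 24.5 and 21.5 CPM with ETV6-RUNX1. The WT values were tight, and the ETV6-RUNX1 marrow values spread from 8.08 to 24.5 CPM with replicate 1 as the low one. The log2 fold changes were 3.76 ± 0.32 (limma adjusted p = 6.95e-07) and 1.50 ± 0.32 (limma adjusted p = 0.00643).

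Oas1c moved least of the 8. Its level was 3.72, 4.77 and 4.28 CPM in WT fetal liver, and 11.1, 14.6 and 15.5 CPM with ETV6-RUNX1. In marrow it was 8.46, 7.11 and 6.98 CPM in WT and 8.65, 9.21 and 10.7 CPM with ETV6-RUNX1. The fetal liver groups were well apart, whereas the highest WT and the lowest ETV6-RUNX1 marrow libraries nearly touched. The log2 fold change was 1.48 ± 0.18 in fetal liver (limma adjusted p = 2.58e-05) and 0.30 ± 0.18 in marrow, which did not pass the test (limma adjusted p = 0.262). The marrow value was -0.017 after quantile normalization. As a ratio of CPM to its neighbour, again read only across groups, Oas1b stood at 0.674 ± 0.144 of Oas1c in WT fetal liver and 3.85 ± 1.17 in ETV6-RUNX1 fetal liver, and at 0.697 ± 0.163 and 1.87 ± 0.874 in WT and ETV6-RUNX1 marrow (SD, n = 3 each).

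In fetal liver 8 of 8 members were called higher with ETV6-RUNX1, meaning a limma adjusted p under 0.05, with a median log2 fold change of 5.14. Over all genes tested 43.1% were called, 24.8% higher, with a median of 0.08. In marrow 7 of 8 were called higher, with a median of 1.88, where 19.4% of all genes were called, 14.4% higher, with a median of 0.13. The libraries of the genotypes did not overlap for 8 of 8 members in either source, as was the case for 32.3% of all genes upward in fetal liver and 23.6% in marrow. Without ETV6-RUNX1 marrow replicate 1 the member count in marrow was again 7, and the log2 fold changes were larger, for example 1.83 for Oas1a and 3.02 for Oasl1.

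**Figure D2:**
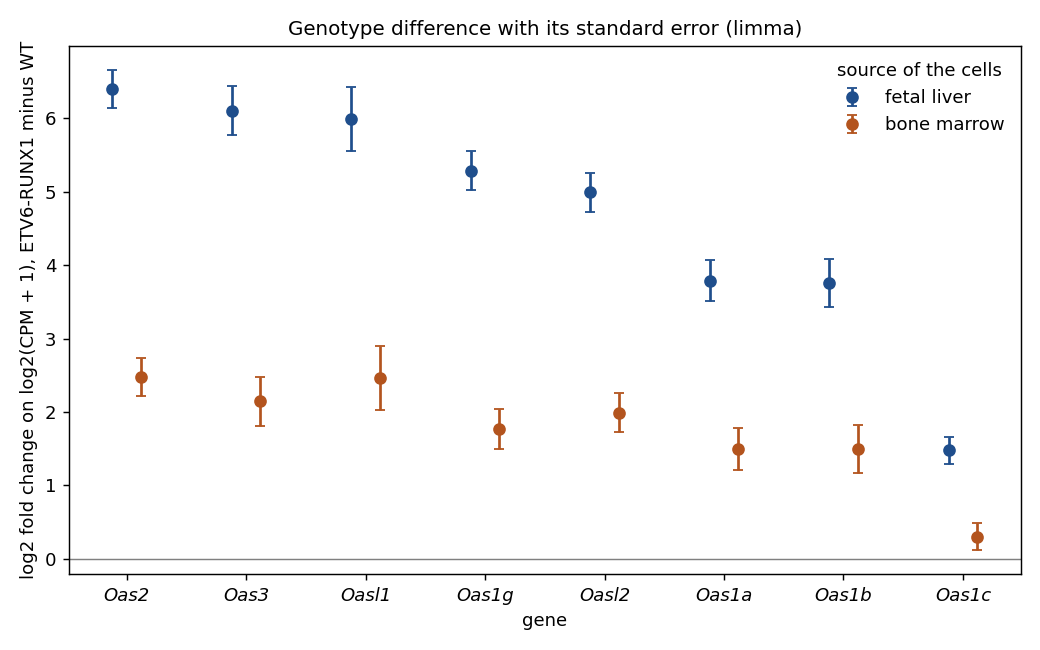
Log2 fold change of ETV6-RUNX1 over WT (log2(CPM + 1) scale, limma, bars are 1 SE) for the 8 members in fetal liver and in bone marrow. For each gene the fetal liver value lies above the marrow value, from 6.39 against 2.48 for Oas2 to 1.48 against 0.30 for Oas1c.

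The effect of the genotype differed between the sources for all 8 members. The difference of the log2 fold changes, fetal liver minus marrow, was called for 8 of 8, ranged from 1.18 ± 0.26 for Oas1c (limma adjusted p = 0.0129) to 3.95 ± 0.47 for Oas3 (limma adjusted p = 0.000164), and had a median of 3.25. Over all genes 9.19% were called, 5.56% in this direction, with a median of -0.05. For Oas1b the call was lost when the level of Y-linked genes (limma adjusted p = 0.0622) or the share of reads in processed pseudogenes (limma adjusted p = 0.0519) entered as a covariate.

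The order of the sources was opposite in the 2 genotypes. Among WT cells the family was lower in fetal liver than in marrow, with 6 of 8 members called lower and a median log2 difference of -1.67, where 11.1% of all genes were called, 7.77% lower, with a median of -0.07. Oas3 had the largest difference, -2.77 ± 0.33 (limma adjusted p = 8.88e-05), followed by Oas2 at -2.32 ± 0.26 (limma adjusted p = 5.11e-05). Oas1a (-0.73 ± 0.28, limma adjusted p = 0.116) and Oas1b (-0.69 ± 0.32, limma adjusted p = 0.2) did not pass, although the libraries of all 8 members were separate, as were those of 18.9% of all genes in this direction. With the level of Y-linked genes as a covariate, which is low in all 3 WT fetal liver libraries, 0 of 8 were called by limma (6 at an unadjusted p under 0.05) and all 8 differences were still negative; without that covariate edgeR and DESeq2 called 6 each. Leaving out single libraries gave 4 to 7 calls: those of Oas1c and Oasl1 were lost, for example, without WT marrow replicate 2 (limma adjusted p = 0.0662 and 0.0612) and without WT fetal liver replicate 3 (limma adjusted p = 0.0805 and 0.0504).

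Among ETV6-RUNX1 cells the family was higher in fetal liver than in marrow. Here 7 of 8 members were called higher, with a median log2 difference of 1.57, where 28.6% of all genes were called, 10.4% higher, with a median of -0.16. Oas1g had the largest difference, 1.92 ± 0.27 (limma adjusted p = 0.000111), and Oas1c, at 0.48 ± 0.18, did not pass (limma adjusted p = 0.0653), though it did with edgeR on recovered reads (0.68, edgeR adjusted p = 0.0315). No libraries overlapped for any of the 8, as for 14.4% of all genes in this direction. The calls of Oas3 and Oasl1 were among the less stable. Without ETV6-RUNX1 marrow replicate 1, Oas3 went from 1.19 ± 0.33 (limma adjusted p = 0.016) to 0.82 (limma adjusted p = 0.0801) and Oasl1 from 1.62 ± 0.43 (limma adjusted p = 0.0126) to 1.06 (limma adjusted p = 0.0565). The call of Oas3 was also lost with the pseudogene covariate (0.53, limma adjusted p = 0.416), over all genes with reads (limma adjusted p = 0.0687) and without ETV6-RUNX1 fetal liver replicate 1 (1.06, limma adjusted p = 0.0674). That of Oasl1 was also lost with the Y-linked covariate (1.03, limma adjusted p = 0.19), over all genes with reads (limma adjusted p = 0.0606) and without ETV6-RUNX1 fetal liver replicate 3 (1.42, limma adjusted p = 0.0502). Over the 24 alternatives 5 to 8 members were called. Both comparisons of sources share their groups with the comparisons of genotypes.

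To set the members beside each other, CPM was divided by the annotated exon length. On this scale Oas1a had the highest level of the 8 in all 4 groups, at 21.1 ± 3.25 CPM per kb in WT fetal liver, 297 ± 41.0 in ETV6-RUNX1 fetal liver, 36.4 ± 12.2 in WT marrow and 106 ± 41.3 in ETV6-RUNX1 marrow (SD, n = 3 each). Oasl2 came second in each group. With the longest transcript as the length, Oasl2 came first in ETV6-RUNX1 marrow. By exon length Oas1a made up 64.6 ± 4.91% of the summed per-kb level of the family in WT fetal liver, 46.6 ± 5.86% in WT marrow, and 39.3 ± 1.03% and 38.0 ± 3.06% in ETV6-RUNX1 fetal liver and marrow. These shares depend on the length used. By the longest transcript, Oas1a and Oasl2 had 297 and 281 CPM per kb in ETV6-RUNX1 fetal liver. The uncertain division of reads between Oas1a and Oas1g limits the shares too. Oas1c fell from the 4th place in WT fetal liver to the last in ETV6-RUNX1 fetal liver, while Oas2 went from the last to the 4th. With the longest transcript as the length, Oas2 came 5th there. The low places in WT fetal liver were close, at 0.63 ± 0.21 CPM per kb for Oas2, 0.65 ± 0.28 for Oas3 and 0.69 ± 0.24 for Oasl1 (SD, n = 3 each).

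The 4 other family genes of the same cluster, Oas1d, Oas1e, Oas1f and Oas1h, were at or near the floor, and 0 of 4 were tested. The highest count in any library was 18 reads, for Oas1d in ETV6-RUNX1 marrow replicate 3. Oas1h had 0 reads in all 3 WT fetal liver libraries and 11, 12 and 4 reads with ETV6-RUNX1. Oas1f had 0 reads in all 3 WT marrow libraries.

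The nearest tested coding genes outside the runs did not follow the family. Beside Oasl2 and Oasl1, 1500011B03Rik (73.5 kb away) changed by -0.07 ± 0.16 in fetal liver and 0.36 ± 0.16 in marrow on the log2 scale, and 2210016L21Rik (4.24 kb away) by 0.21 ± 0.16 and 0.40 ± 0.16, none of them past the test (lowest limma adjusted p = 0.0861). On the far side of Oas1a, Ptpn11 (223 kb away) gave 0.33 ± 0.16 and 0.17 ± 0.16 (limma adjusted p = 0.106 and 0.468). Next to Oas2, Rasal1 (50.7 kb away), an inhibitor of RAS signalling, went from 10.7, 2.21 and 4.54 CPM in WT to 2.67, 0.610 and 0.540 CPM in ETV6-RUNX1 fetal liver, -1.51 ± 0.44 on the log2 scale (limma adjusted p = 0.0132). The Rasal1 libraries overlapped, and the gene passed the filter on low values only through the WT fetal liver libraries, so this p is not independent of the filter. The call was lost in 6 of 23 alternatives: with array weights (-0.80, limma adjusted p = 0.104), with DESeq2 (adjusted p = 0.0609), over all genes with reads (limma adjusted p = 0.0647), without WT fetal liver replicate 1 (-1.01, limma adjusted p = 0.0679), without ETV6-RUNX1 fetal liver replicate 2 (-1.32, limma adjusted p = 0.0545) and without its replicate 3 (-1.29, limma adjusted p = 0.0556).

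**Figure D3:**
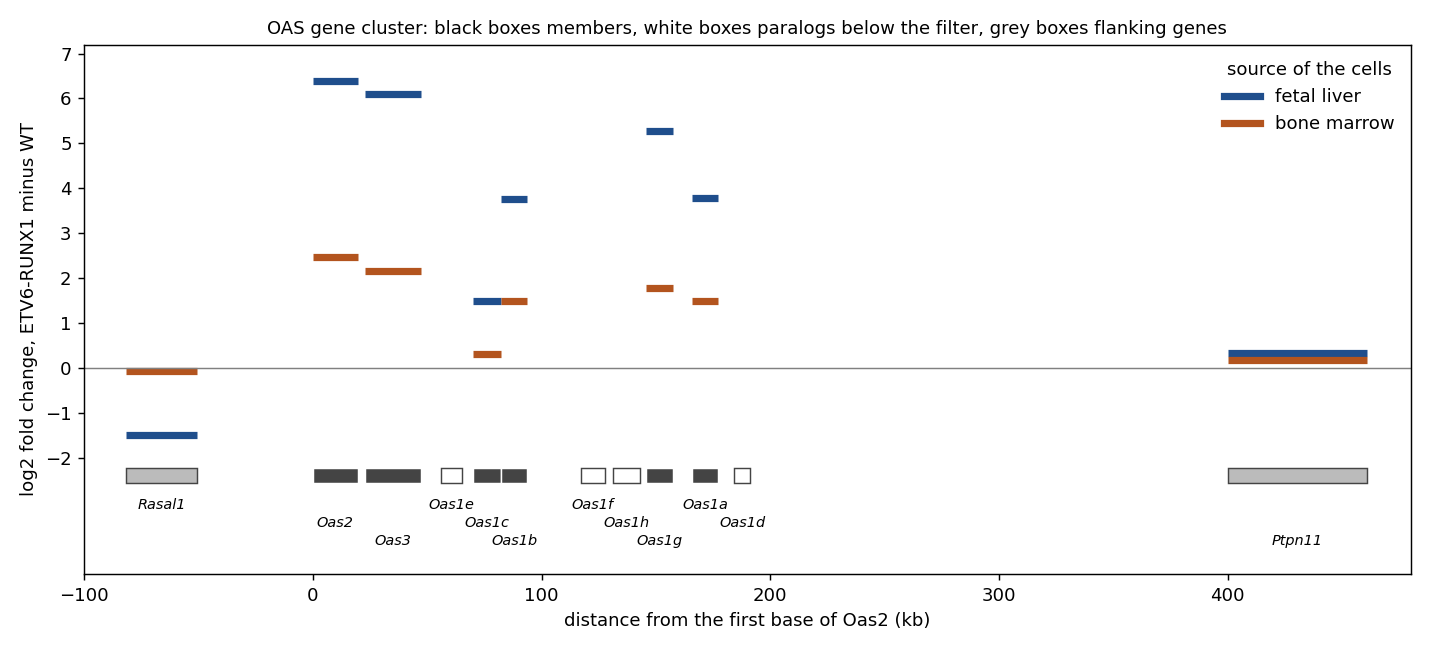
Log2 fold change of ETV6-RUNX1 over WT (vertical axis) against distance from the first base of Oas2 (kb) over the run of 6 members on chromosome 5, with gene bodies as boxes below. The members reach 1.48 to 6.39 in fetal liver and 0.30 to 2.48 in marrow, while the flanking Ptpn11 stays at 0.33 and 0.17 and Rasal1 at -1.51 and -0.07.

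Of 4 genes listed around the turnover of 2-5A, 1 was called higher and 0 lower in fetal liver, and 2 higher and 0 lower in marrow, where 24.8% and 14.4% of all genes were called higher. The fetal liver count is thus at the background. Cnp was the gene called in fetal liver (0.87 ± 0.14, limma adjusted p = 0.000204), and it was called in marrow too (0.59 ± 0.14, limma adjusted p = 0.01). Pde12, a phosphodiesterase that degrades 2-5A, was at 12.3 to 13.8 CPM in WT and 8.51 to 12.2 CPM in ETV6-RUNX1 fetal liver, a log2 fold change of -0.28 ± 0.23 (limma adjusted p = 0.353). In marrow it was at 7.28 to 11.6 CPM and 11.9 to 19.9 CPM, 0.70 ± 0.23 (limma adjusted p = 0.0457), a call lost in 19 of 24 alternatives. Abce1, a ribosome recycling factor, gave -0.49 ± 0.25 and -0.46 ± 0.25 (limma adjusted p = 0.123 and 0.209). Its lower value in fetal liver passed in 7 of 24 alternatives, among them edgeR (adjusted p = 0.0484), DESeq2 (adjusted p = 0.0354) and the pseudogene covariate (-0.96, limma adjusted p = 0.00277). In marrow Abce1 passed in 2 of 24, with DESeq2 (adjusted p = 0.029) and without WT marrow replicate 1 (-0.77, limma adjusted p = 0.0248).

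**Figure D4:**
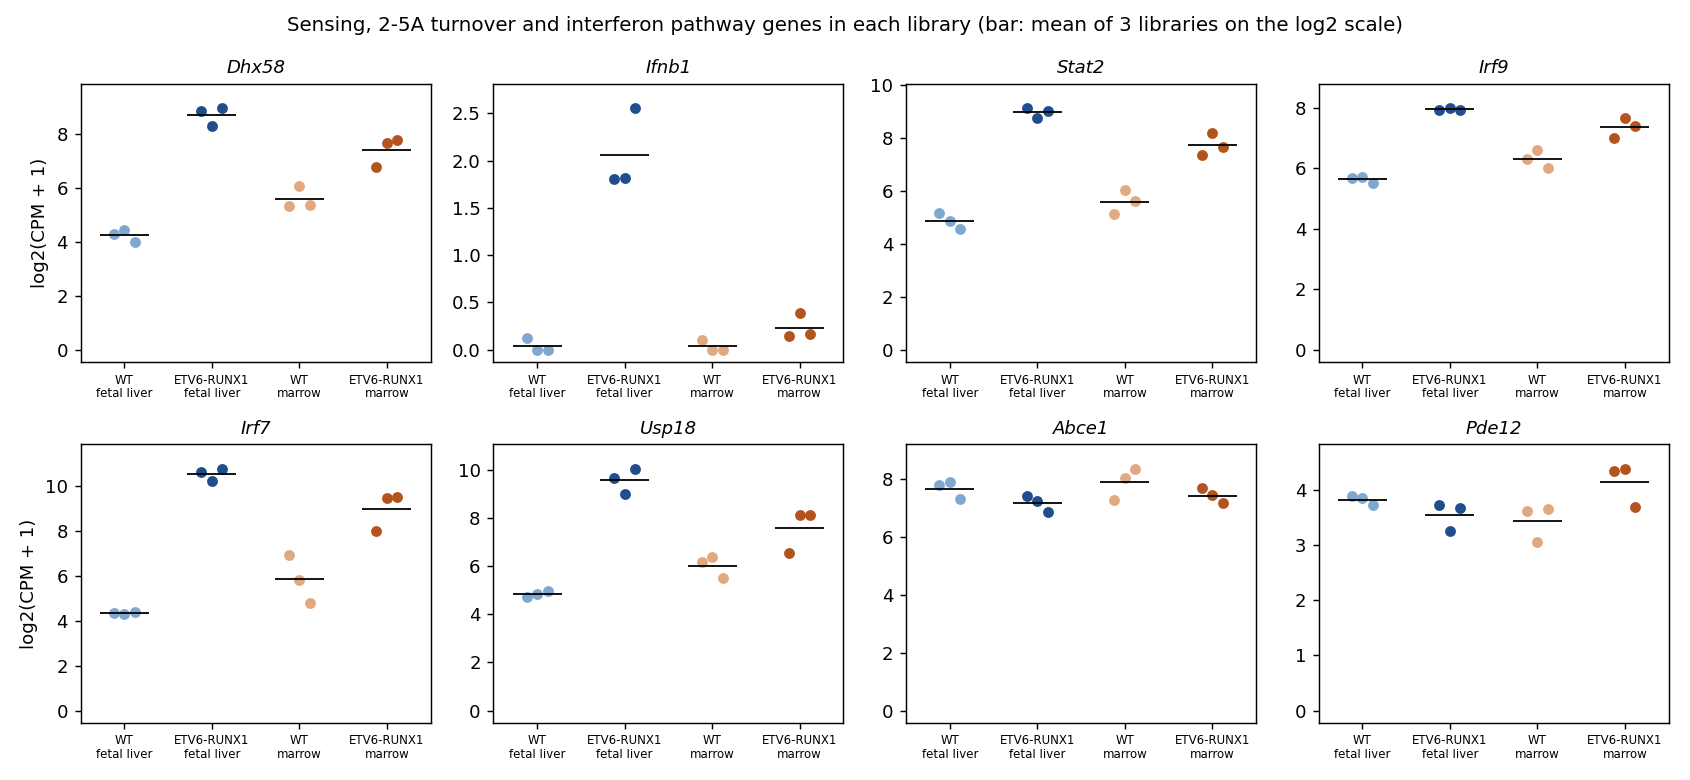
log2(CPM + 1) of Dhx58, Ifnb1, Stat2, Irf9, Irf7, Usp18, Abce1 and Pde12 in each of the 12 libraries, by group. Points are libraries and bars are group means of the log2 values. Irf9 changes by 2.31 in fetal liver while Irf7 changes by 6.18, and Ifnb1 is clearly above 0 in the 3 ETV6-RUNX1 fetal liver libraries.

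Most genes listed for the sensing of double-stranded RNA and the response to it were called higher with ETV6-RUNX1. Of 11 tested, 10 were called higher and 0 lower in fetal liver (median log2 fold change 3.55), 9 higher and 0 lower in marrow (median 1.50), and the effect was larger in fetal liver by the test of the difference for 8 of 11. Over all genes 24.8% were called higher in fetal liver, 14.4% in marrow and 5.56% for the difference. Dhx58, the RIG-I-like regulator LGP2, changed by 4.45 ± 0.27 in fetal liver (limma adjusted p = 2.48e-08) and 1.81 ± 0.27 in marrow (limma adjusted p = 0.000762). Ifih1, the sensor MDA5, changed by 3.55 ± 0.25 (limma adjusted p = 8.38e-08) and 1.50 ± 0.25 (limma adjusted p = 0.00143).

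Eif2ak2, the kinase PKR that stops translation when it binds double-stranded RNA, changed by 1.80 ± 0.20 (limma adjusted p = 7.78e-06) and 0.79 ± 0.20 (limma adjusted p = 0.0136). Its marrow call was lost without ETV6-RUNX1 marrow replicate 2 (limma adjusted p = 0.061). Adar, the enzyme that edits double-stranded RNA and so limits its sensing, changed by 2.57 ± 0.23 (limma adjusted p = 1.3e-06) and 0.89 ± 0.23 (limma adjusted p = 0.0181), the marrow call being lost in 4 of 24 alternatives, among them without WT marrow replicate 1 (0.61, limma adjusted p = 0.0576) or ETV6-RUNX1 marrow replicate 2 (limma adjusted p = 0.0693). Mavs, the adaptor downstream of the RIG-I-like receptors, did not follow the family, at 0.44 ± 0.17 and -0.39 ± 0.17 (limma adjusted p = 0.0565 and 0.133). Mavs passed in 3 of 24 alternatives as higher in fetal liver, among them array weights (limma adjusted p = 0.00484), and in 4 of 24 as lower in marrow, among them edgeR (adjusted p = 0.0387) and DESeq2 (adjusted p = 0.0266).

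Of 14 interferon ligand genes only Ifnb1, the gene of interferon beta, passed the filter on low values. It had 4, 0 and 0 reads in WT fetal liver and 119, 141 and 163 reads in ETV6-RUNX1 fetal liver, the latter 3.31 ± 1.37 CPM (SD, n = 3). In marrow it had 4, 0 and 0 reads in WT and 4, 10 and 4 reads with ETV6-RUNX1. The ETV6-RUNX1 fetal liver libraries were thus the only group with more than 10 reads in a library. Ifnb1 reached 1 CPM only in these 3 libraries and so entered the fit only through the group where it is high, for which reason its levels are given as a description, with no test. Ifna12, Ifna13 and Ifna5 had 0 reads in all 12 libraries, and Ifng had at most 2 reads in a library.

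Of 9 genes of interferon receptors and signalling, 7 were called higher and 0 lower in fetal liver, and 5 higher and 0 lower in marrow. Stat2 and Irf9, transcription factors that act at the ISRE, were among them. The shares of all genes called higher were 24.8% and 14.4%. Stat2 changed by 4.10 ± 0.24 and 2.14 ± 0.24 (limma adjusted p = 2.19e-08 and 0.00015), and Irf9 by 2.31 ± 0.17 and 1.04 ± 0.17 (limma adjusted p = 1.72e-07 and 0.0015), in fetal liver and marrow. The receptor gene Ifnar1 changed by 0.83 ± 0.19 in fetal liver (limma adjusted p = 0.00281), a call lost with the Y-linked covariate (0.49, limma adjusted p = 0.466). The marrow value of Ifnar1, 0.53 ± 0.19, did not pass (limma adjusted p = 0.0625), though it did in 3 of 24 alternatives. Ifnar2 passed in neither source (0.49 ± 0.39 and 1.15 ± 0.39, limma adjusted p = 0.329 and 0.0506). Its marrow value passed in 6 of 24 alternatives, among them edgeR (adjusted p = 0.0469), DESeq2 (adjusted p = 0.00909) and the pseudogene covariate (1.57, limma adjusted p = 0.0194).

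Of 6 interferon regulatory factors, 5 were called higher in fetal liver and 3 in marrow, with 0 lower, beside 24.8% and 14.4% of all genes. Irf7, the factor that amplifies interferon production and the known target of Oasl1, read 19.1, 18.9 and 20.1 CPM in WT and 1543, 1187 and 1737 CPM in ETV6-RUNX1 fetal liver, 6.18 ± 0.45 on the log2 scale (limma adjusted p = 1.2e-07). In marrow it read 122, 55.8 and 26.3 CPM in WT and 249, 707 and 716 CPM with ETV6-RUNX1, 3.13 ± 0.45 (limma adjusted p = 0.000549). As for the OAS genes, replicate 1 was the lowest of the ETV6-RUNX1 marrow libraries. Irf1 changed by 2.52 ± 0.21 and 1.16 ± 0.21 (limma adjusted p = 6.18e-07 and 0.00273), and Irf3, which is present before any signal, gave 0.23 ± 0.13 and 0.39 ± 0.13 (limma adjusted p = 0.19 and 0.0578).

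Of 7 listed feedback inhibitors, 6 were tested (Trex1 is listed at 0), of which 4 were called higher in fetal liver and 5 in marrow, with 0 lower. Among all genes 24.8% and 14.4% were called higher. Ptpn11, given above as a flanking gene, passed in neither source. Socs1 was among the 5 called in marrow, but passed the filter only through the ETV6-RUNX1 marrow libraries. Its marrow call is therefore not to be read against the 14.4% of all genes. The fetal liver value of Socs1 was 0.37 ± 0.19 (limma adjusted p = 0.131). Usp18, which shuts off the receptor, changed by 4.72 ± 0.37 and 1.57 ± 0.37 (limma adjusted p = 2.66e-07 and 0.0103). The marrow call of Usp18 was lost without ETV6-RUNX1 marrow replicate 2 (1.31, limma adjusted p = 0.0535). Isg15, a ubiquitin-like protein, changed by 5.86 ± 0.44 and 2.71 ± 0.44 (limma adjusted p = 1.79e-07 and 0.00135).

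Genes that tracked the family most closely were found by the Pearson correlation of log2(CPM + 1) with the mean z score of the 8 members over the 12 libraries. The 5 highest of 14263 other tested genes were Ddx60 (0.996), Igtp (0.995), Irgm1 (0.994), Trim34a (0.993) and Ms4a6b (0.993). The members themselves had 0.959 (Oas1c) to 0.997 (Oas1g). Each member is part of that mean, so its value is raised by its own share and cannot be set beside those of other genes. These values describe 12 libraries that fall into 4 groups and share scaling by depth. Ddx60 had 5.49, 6.46 and 5.47 CPM in WT fetal liver, 431, 320 and 499 CPM in ETV6-RUNX1 fetal liver, 24.1, 31.5 and 20.2 CPM in WT marrow and 88.9, 182 and 188 CPM in ETV6-RUNX1 marrow, the order of the groups seen in the OAS genes.

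Markers of other cells that could be in the cultures also moved with the groups. Of 10 macrophage and monocyte markers 4 were tested, and their list summed to 42.1 to 49.3 CPM in WT and 114 to 125 CPM in ETV6-RUNX1 fetal liver, and to 36.4 to 61.3 CPM in WT and 85.8 to 107 CPM in ETV6-RUNX1 marrow. Adgre1 is left out of the counts that follow, for the reason given below. Cd68 and Csf1r were called higher in fetal liver and 1, Cd68, in marrow, beside 24.8% and 14.4% of all genes. So few tested genes cannot set the marrow count apart from that share. Mrc1, the other tested marker, gave -0.20 ± 0.37 in fetal liver and 0.24 ± 0.37 in marrow (limma adjusted p = 0.696 and 0.684). Cd68, a lysosomal protein, gave most of the sum. It changed by 1.25 ± 0.17 in fetal liver (limma adjusted p = 5.9e-05) and went from 42.0 ± 11.3 to 89.7 ± 11.8 CPM in marrow (SD, n = 3 each, limma adjusted p = 0.000972). Csf1r, the receptor of the macrophage growth factor, went from 1.41, 0.385 and 0.682 CPM in WT to 13.6, 7.13 and 9.33 CPM in ETV6-RUNX1 fetal liver, 2.59 ± 0.27 on the log2 scale (limma adjusted p = 4.42e-06). In marrow Csf1r gave 0.33 ± 0.27 (limma adjusted p = 0.4), and the difference of the effects was called (2.26 ± 0.38, limma adjusted p = 0.00219). Adgre1, the macrophage antigen F4/80, had 3, 0 and 2 reads in WT and 74, 33 and 52 reads in ETV6-RUNX1 fetal liver, and passed the filter only through ETV6-RUNX1 libraries. C1qa, another macrophage gene, had 0 reads in 11 libraries and 1 read in the other.

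The 8 dendritic cell markers, 3 of them tested, summed to 119 to 129 and 201 to 221 CPM in fetal liver and to 178 to 210 and 220 to 255 CPM in marrow. Xcr1 is left out of the counts that follow, for the reason given below. Tcf4 and Zbtb46 were called higher in fetal liver and 1, Zbtb46, in marrow, beside 24.8% and 14.4% of all genes. So few tested genes cannot set the marrow count apart from that share. Nearly all of the sum was Tcf4, a transcription factor, at 119 ± 4.73 CPM in WT and 200 ± 11.1 CPM in ETV6-RUNX1 fetal liver (SD, n = 3 each), 0.74 ± 0.12 on the log2 scale (limma adjusted p = 0.000179). Zbtb46, a transcription factor of classical dendritic cells, changed by 1.14 ± 0.23 (limma adjusted p = 0.00133) in fetal liver. Xcr1, a chemokine receptor of dendritic cells, had 10, 7 and 17 reads in WT and 56, 56 and 40 reads in ETV6-RUNX1 fetal liver, and passed the filter only through the latter. Siglech, which marks plasmacytoid dendritic cells, the classic interferon producers, had at most 10 reads in a library and 0 in all 3 WT fetal liver libraries.

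The 7 lymphoid markers summed to at most 3.36 CPM in any library, with Cd3e at 0 reads throughout. Neutrophil markers were lower with ETV6-RUNX1, at 17.3 to 20.1 and 5.06 to 7.53 CPM in fetal liver and 2.79 to 114 and 1.14 to 2.4 CPM in marrow, WT first. Ltf, the only neutrophil marker tested, gave -1.36 ± 0.54 in fetal liver (limma adjusted p = 0.0533) and -1.70 ± 0.54 in marrow (limma adjusted p = 0.0395). Mast cell markers, with Mcpt4 at 0, summed to 4.9 to 8.5 and 3.2 to 4.1 CPM in fetal liver. In marrow they summed to 6.5 to 8.2 and 6.7 to 9.98 CPM, again WT first. Endothelial and liver markers summed to 25.9 to 39.6 CPM. Erythroid markers summed to 649 to 910 and 1256 to 1985 CPM in fetal liver, and to 198 to 458 and 367 to 569 CPM in marrow. Megakaryocyte markers summed to 2923 to 4413 and 6821 to 7287 CPM in fetal liver, and to 1169 to 1629 and 331 to 1917 CPM in marrow, WT first. The part of these cells in the OAS levels was not tested.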

How the data were processed

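The members and the gene lists were chosen with earlier results of these data known. The authors deposited CPM per gene for 12 libraries, made from SMARTer stranded total RNA (read pairs, NovaSeq) per the labels' protocols. The submitters' processing notes name bcl2fastq, STAR 2.5.1a, Subread, featureCounts 1.4.6-p5, Salmon 0.8.2, edgeR, limma and GRCm38, with no order. The annotation, the use of strand and the treatment of reads with several matches are not given in the sources used here.

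Of 40757 rows, 276 repeat a gene ID and were kept once. The CPM values are whole multiples of a step (100% within 0.01 reads), from which reads and library totals were recovered. No replicate pair was identical. limma 3.58.1 (R 4.3.3) with a mean-variance trend was fitted to log2(CPM + 1), pseudocount 1 CPM, on genes that reached 1 CPM in 3 or more libraries, with 4 group coefficients and 8 residual degrees of freedom, for 5 comparisons, two-sided, Benjamini-Hochberg adjusted, threshold 0.05. Fold changes on this scale understate those of low genes. edgeR 4.0.16 and DESeq2 1.42.0 on recovered reads, other filters, pseudocounts, scalings, covariates and left-out libraries were alternatives. The fit was tested on simulated data. Genes named were the 8 members, a fixed set of pathway genes (some are not reported here and were left out of the list counts), the 5 most alike genes and the nearest flanking genes. Marker lists were read as summed levels, and the single marker genes, Cnp and Runx1 were named after their values were seen. Positions and lengths are from GENCODE M21 (GRCm38), promoters from RefSeq (GRCm38.p6).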

Additional observations from a re-analysis of the deposited data

Results flagged for a closer look

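Of 34 genes looked at, 24 had an effect of ETV6-RUNX1 that differed between fetal liver and marrow (limma interaction, adjusted p under 0.05), each larger in fetal liver. Over all genes 9.19% were called, 5.56% in this direction, and most of the 34 were chosen with results of these data known. The 24 include Ifnb1, which entered the fit only through the group where it is high, and the genes picked by likeness to the members. The calls of these genes carry no weight, so the count of 24 is not to be read against these shares. Among the 24 were all 8 OAS members, with differences of the log2 fold changes of 3.95 for Oas3, 3.92 for Oas2, 3.52 for Oasl1, 3.51 for Oas1g, 2.99 for Oasl2, 2.29 for Oas1a, 2.26 for Oas1b and 1.18 for Oas1c.

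The sensors differed by 2.64 for Dhx58, 2.05 for Ifih1, 1.69 for Adar and 1.01 for Eif2ak2. The interferon gene Ifnb1 differed by 1.82, but it entered the fit only through the ETV6-RUNX1 fetal liver libraries, where it is high, so this is a description, and it did not pass with edgeR on recovered reads (adjusted p = 0.152). Among signalling genes and regulatory factors, Stat2 differed by 1.96, Irf9 by 1.27, Irf1 by 1.36 and Irf7 by 3.05. Isg15 differed by 3.16 and Usp18 by 3.15.

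The 5 genes most alike to the family differed by 3.42 (Ddx60), 2.76 (Ms4a6b), 2.75 (Igtp), 2.01 (Irgm1) and 1.96 (Trim34a). They were picked by their likeness to the members over the same libraries, so their differences are no separate evidence. The call for Eif2ak2 was lost in 11 of 23 alternatives, the replicate block among them (limma adjusted p = 0.0579). That for Irf1 was lost in 3 (limma adjusted p from 0.0538 to 0.0585). The calls for Adar, Stat2 and Oas1b were lost with the Y-linked and with the pseudogene covariate; with the latter Adar went to 0.84 (limma adjusted p = 0.156) and Stat2 to 1.28 (limma adjusted p = 0.0942). Those for Irf9 and Ifih1 were lost with the pseudogene covariate (limma adjusted p = 0.0811 and 0.0612), and those for Irf7 and Isg15 over all genes with reads (limma adjusted p = 0.0605 and 0.0507). The pseudogene share itself differed between the ETV6-RUNX1 groups, as given above.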

How the results depend on the processing

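For the effect of the genotype, the member counts were 8 in fetal liver and 7 in marrow in all 24 alternatives, and 7 or 8 for the difference of the effects. Between the sources they moved, from 0 to 8 in WT and from 5 to 8 with ETV6-RUNX1. With the replicate block, which the numbers do not justify as a pairing (correlations of same-numbered libraries from -0.44 to 0.22), the members had 8, 7 and 8 calls, and 5838 genes were called in fetal liver and 2334 in marrow. It lost the marrow call of Pde12 and the difference for Eif2ak2, and changed no other call among the 108 gene results followed through the alternatives. The single marker genes, Cnp, Socs1 and Runx1 were not among those followed.

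The counts over all genes moved more; the cause was not tested. In fetal liver 6151 genes were called, 1081 with Y-linked genes as a covariate and 4666 to 6638 with single libraries left out. In marrow 2763 were called, 1601 with only the 6 libraries compared and 1520 to 2924 with libraries left out. The difference of effects gave 1311, with 767 over all genes with reads, 3637 with array weights, 407 with the Y-linked covariate, 543 with the pseudogene covariate and 731 to 2332 with libraries left out. WT fetal liver against marrow gave 1591, with 4401 under array weights, 256 with the Y-linked covariate (with 0 members called) and 868 to 2781 with libraries left out. Oas1a was the highest member per kb in 4 groups, in 3 with the longest transcript.

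The split of directions moved with scaling and with other settings. In fetal liver 57.6% of calls were higher, 42.0% after quantile normalization and 71.2% with the Y-linked covariate. In marrow 74.5% were higher, and 50.6% with median-of-ratios scaling, which moved the median of all genes in marrow from 0.13 to -0.001. For the interaction, 60.6% became 74.5% with median-of-ratios scaling, 60.0% after quantile normalization, 76.9% with the Y-linked covariate and 46.4% with array weights. For WT fetal liver against marrow, 30.3% became 41.0% with median-of-ratios scaling and 59.4% with the Y-linked covariate. For ETV6-RUNX1, 36.3% became 58.7% and 41.9%, in the same order.

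Of 2563 alternative values for 108 gene results, 2433 kept direction and side of the threshold, 81 lost a call, 38 gained one and 11 changed sign. Those 11 were -0.017 for Oas1c in marrow with quantile normalization; -0.50 for Ifnar2 and -0.066 for Ptpn11 in fetal liver with the Y-linked covariate, and -0.043 for Ptpn11 in marrow with quantile normalization; 0.084 and 0.045 for 1500011B03Rik in fetal liver with the Y-linked and the pseudogene covariate, and 0.032 without WT fetal liver replicate 3 (-0.15 to 0.032 with libraries left out); and for Rasal1 in marrow 0.47 with the pseudogene covariate, 0.13 without WT marrow replicate 3, and 0.026 and 0.16 without ETV6-RUNX1 marrow replicate 1 and 3 (-0.38 to 0.16 with libraries left out). Depth limits the paralogs and the interferon genes with under 10 reads.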
